A study of Mus musculus with 18 samples.

Results

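The transcripts described here belong to 10 genes that move or hold iron, zinc and related metals in a macrophage: Tfrc, Slc39a14, Slc11a2, Slc11a1, Fth1, Ftl1, Slc40a1, Slc30a1, Mt1 and Mt2. They were taken by name, and all 10 were measured among the 23102 genes with a value on the array. Total RNA came from J774, a mouse macrophage line grown in culture, exposed for 24 h in 24-well plates and read on Affymetrix arrays. The 6 groups of 3 arrays were talc with estradiol, talc, titanium dioxide (TiO2) with estradiol, TiO2, estradiol, and vehicle. Particles were given at 10 µg per well and 17-β estradiol at 2 µg/mL. All groups shared the medium, free of phenol red and with 10% serum, and the vehicle itself is not named. The cells are 1 line. Nothing in the labels states that arrays within a group were separate cultures, so each p-value speaks of the spread between arrays, which could be technical alone. TiO2 is a second mineral particle set beside talc at the same mass.

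The median intensity per array ranged from 45.6 to 48.0. The arrays are numbered group by group, so array order and group cannot be told apart. All 10 macrophage markers were above the median of all genes (percentiles 67.9 to 99.9). Lymphocyte and granulocyte markers lay above it in 0 of 4 and 0 of 5 cases, fibroblast markers in 2 of 6, epithelial markers in 2 of 5 and erythroid markers in 1 of 3. The mean of the macrophage markers was 9.91 to 10.03 log2 units on talc arrays, against 10.11 to 10.15 on vehicle arrays. With estradiol it was 10.01 to 10.06 on talc arrays, against 10.03 to 10.08 on arrays of estradiol alone. On TiO2 arrays it was 9.98 to 10.13, and on arrays of TiO2 with estradiol 9.99 to 10.00, so lower values were not limited to talc. Its part in the results below was not tested. In bulk RNA, fewer cells with a transcript and less of it per cell cannot be told apart.

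Macrophages recycle iron from red cells and withhold it from microbes, and they balance uptake, storage and release. Iron enters bound to transferrin through the transferrin receptor, crosses the endosomal membrane through a divalent metal transporter, is stored in ferritin and leaves through ferroportin. Iron regulatory proteins stabilise the transferrin receptor messenger and hold back ferritin translation when iron is short, and an array reads only the messenger. Metallothioneins bind zinc and copper and are induced by these metals through the transcription factor MTF1.

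After talc, the transferrin receptor and an endosomal iron transporter were higher and both metallothioneins lower. For TiO2 at the same mass none of the 10 passed, but 0% of all genes did, so that count is no result about these genes. Relative to vehicle, Tfrc and Slc11a2 were higher and Mt1 and Mt2 lower in talc-treated cells. These were 4 of 10 genes by limma at an adjusted p under 0.05, where 8.46% of all genes passed. The 3 talc arrays did not overlap with the 3 vehicle arrays in 5 of 10 genes, as in 26.2% of all genes. Ferritin, ferroportin, Slc11a1, Slc39a14 and Slc30a1 did not pass. The median log2 change of the 10 genes was 0.03, beside 0.02 for all genes. In cells that also received estradiol, only Mt1 passed, and was lower with talc, 1 of 10 genes, where 7.13% of all genes passed. Arrays did not overlap there in 5 of 10 genes, against 26.2% of all genes. Median changes there were 0.02 for the 10 genes and -0.004 for all genes.

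**Figure D1:**
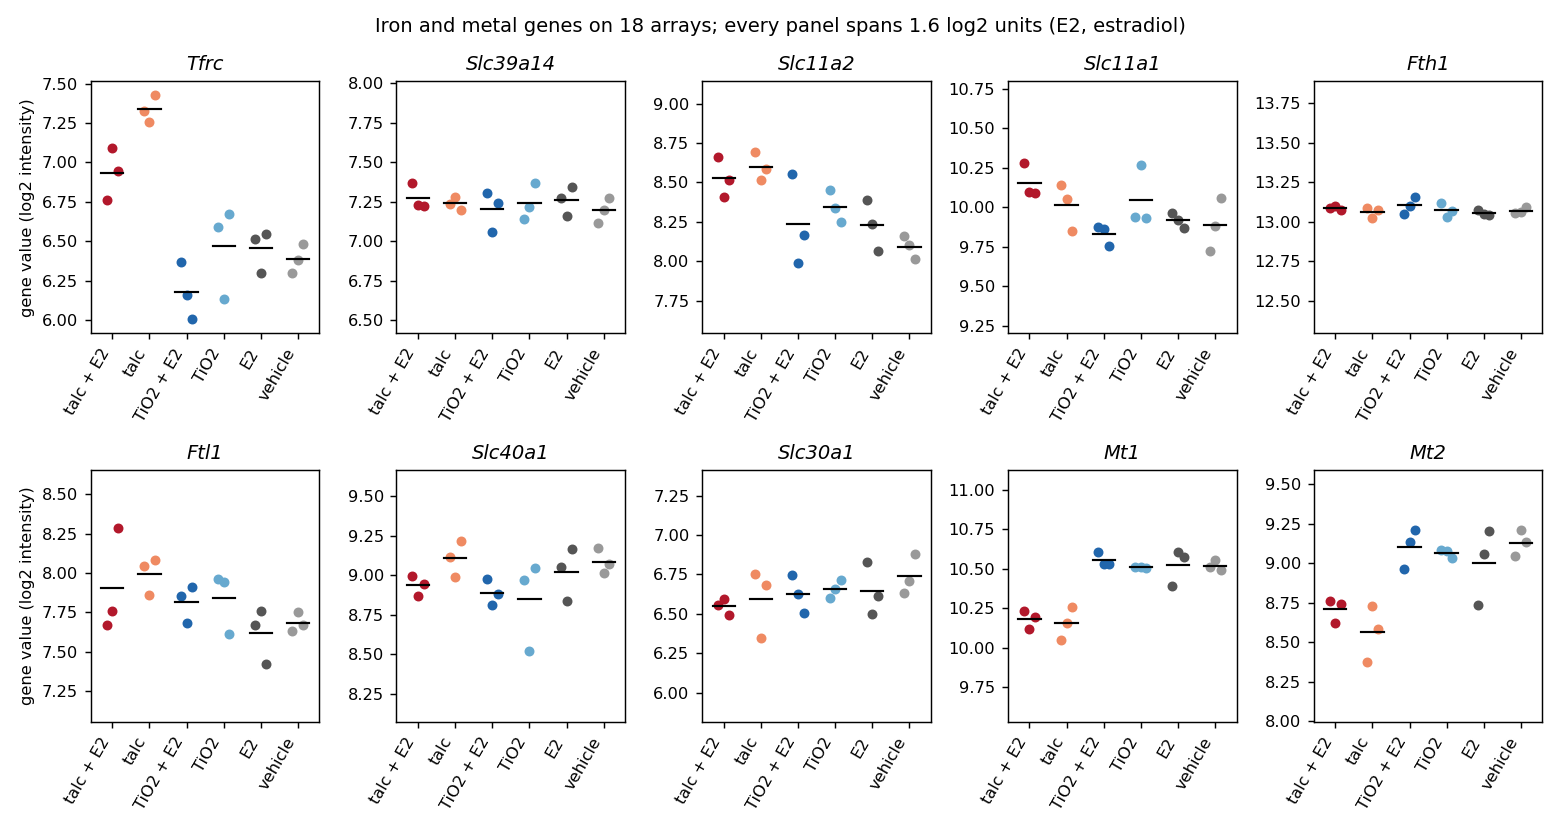
Log2 intensity of the 10 genes on each of the 18 arrays, by group (points, arrays; bars, group means), with every panel spanning the same number of log2 units. Tfrc stands highest on the 3 talc arrays (7.26 to 7.43), and Mt1 is lower on all 6 arrays of talc-treated cells (10.05 to 10.26) than on the other 12, while Fth1 stays between 13.03 and 13.16.

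Tfrc encodes transferrin receptor 1, which carries iron-loaded transferrin into endosomes. Its gene lies at chr16:32608896-32632794 in GRCm38.p6. Its log2 intensity was 7.33, 7.26 and 7.43 on the talc arrays, against 6.30, 6.38 and 6.48 on the vehicle arrays. The groups did not overlap, and the change was 0.95 ± 0.14 log2 units (SE, n = 3 each, limma adjusted p = 0.000342), or 1.93-fold. Talc with estradiol gave 6.76, 7.09 and 6.94, against 6.52, 6.30 and 6.55 with estradiol alone. Here too every talc array was higher. The difference of 0.48 ± 0.14 (95% interval 0.18 to 0.78) had an adjusted p of 0.0505 and did not pass. It passed when 1 array of another group was left out of the shared fit, TiO2 replicate 2 (adjusted p = 0.0192) or 3 (0.0441), or TiO2 with estradiol replicate 1 (0.0469) or 3 (0.0455), with the same difference of 0.48. Over the 28 alternatives described at the end it passed in 10 and did not pass in 18, with limma adjusted p from 0.00817 to 0.197. TiO2 with estradiol gave 6.37, 6.16 and 6.01, and TiO2 alone 6.59, 6.14 and 6.67. Both sets overlapped their controls.

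In order of group means, Tfrc was highest with talc (7.34 ± 0.09, SD, n = 3), then with talc and estradiol (6.93 ± 0.17). TiO2 (6.47 ± 0.29), estradiol (6.46 ± 0.14), vehicle (6.39 ± 0.09) and TiO2 with estradiol (6.18 ± 0.18) followed. Only the first 2 steps of this order separated groups without overlap, by 0.40 and 0.46 log2 units, or 2.34 and 2.70 times the pooled SD. The 4 groups without talc overlapped with their neighbours.

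Slc39a14, a transporter that takes up zinc and iron not bound to transferrin, is at chr14:70303467-70351452. It had 7.24, 7.28 and 7.20 log2 units with talc, against 7.12, 7.19 and 7.27 with vehicle. The difference of 0.04 had a 95% interval of -0.16 to 0.25. Its 18 arrays lay between 7.06 and 7.37, and the group means spanned 0.08.

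Slc11a2 (chr15:100387898-100424209) encodes DMT1, which moves ferrous iron out of the endosome. It had 8.70, 8.52 and 8.58 log2 units with talc, against 8.16, 8.10 and 8.01 with vehicle. Every talc array was higher, with a change of 0.51 ± 0.13 (limma adjusted p = 0.0229), or 1.42-fold. The call was lost without talc replicate 1 (0.46, adjusted p = 0.0954) or 3 (0.51, 0.0667), and without vehicle replicate 2 (0.51, 0.0634) or 3 (0.47, 0.0871). With estradiol the arrays read 8.66, 8.41 and 8.52 for talc, against 8.39, 8.24 and 8.06 without particles. All talc arrays were higher again, but the difference of 0.30 ± 0.13 (95% interval 0.02 to 0.58) did not pass (adjusted p = 0.223). TiO2 gave 8.45, 8.34 and 8.25, each above every vehicle array, and the difference of 0.25 ± 0.13 (-0.03 to 0.54) did not pass (adjusted p = 0.648). Neighbours in the order of the 6 groups, from talc (8.60 ± 0.09, SD, n = 3) to vehicle (8.09 ± 0.07), overlapped throughout.

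Its relative Slc11a1 (chr1:74375014-74386057) encodes NRAMP1, which pumps divalent metals out of the phagosome of macrophages. It had 10.28, 10.09 and 10.09 log2 units with talc and estradiol, against 9.96, 9.92 and 9.87 with estradiol. These arrays did not overlap, yet the difference of 0.24 ± 0.12 (95% interval -0.01 to 0.49) did not pass (adjusted p = 0.292). Without estradiol, talc gave 10.14, 10.05 and 9.85, against 9.72, 9.88 and 10.06 with vehicle, which overlap.

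Neither of the 2 storage genes passed in any comparison. Fth1 (chr19:9980600-9985111) encodes the ferritin heavy chain, which oxidises iron for storage. It had 13.09, 13.03 and 13.08 log2 units with talc, against 13.06, 13.06 and 13.10 with vehicle. The difference was -0.01 (95% interval -0.17 to 0.16). Fth1 stands at percentile 99.97 of all genes, and its group means spanned 0.05.

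Ftl1 (chr7:45457944-45459886) encodes the ferritin light chain. It had 8.04, 7.86 and 8.08 with talc, against 7.63, 7.75 and 7.67 with vehicle. All talc arrays were higher, by 0.31 ± 0.15 (95% interval -0.01 to 0.63), and the difference did not pass (adjusted p = 0.265). Talc with estradiol gave 7.67, 7.76 and 8.29, against 7.67, 7.76 and 7.42 with estradiol. Those groups overlapped, and 1 talc array stood apart at 8.29. The Ftl1 value rests on 4 probe sets, and 6 more match both Ftl1 and the near-identical Ftl2, so signal from the 2 genes cannot be told apart there. The shared probe sets were brighter, with mean log2 intensities of 10.61 to 12.98. They differed by 0.05 to 0.21 for talc against vehicle, with a smallest adjusted p of 0.436 among probe sets, and by 0.15 to 0.37 for talc with estradiol against estradiol (0.379).

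Slc40a1 (chr1:45908070-45926532) encodes ferroportin, the cell's iron exporter. It had 9.11, 8.99 and 9.22 log2 units with talc, against 9.17, 9.02 and 9.07 with vehicle. The groups overlapped, with a difference of 0.02 (95% interval -0.25 to 0.29). TiO2 read 8.97, 8.52 and 9.05, and its second array was the lowest of all 18. Slc30a1 (chr1:191906697-191913248) encodes the zinc exporter ZnT1. It had 6.75, 6.35 and 6.68 log2 units with talc, against 6.63, 6.71 and 6.88 with vehicle, which overlap (difference -0.14, 95% interval -0.40 to 0.11). Its value rests on 3 probe sets, and with only those above the median level of all probe sets the difference was -0.28 and passed (adjusted p = 0.0339).

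The metallothioneins Mt2 (chr8:94172618-94173567) and Mt1 (chr8:94178883-94180327) are neighbours, with 5315 bases between them. Their RefSeq promoter windows are shown because both genes fell with talc and metal response elements are the known binding sites of MTF1. The 250 bases before each start, from RefSeq on GRCm38.p6 and the + strand, are printed 5′ to 3′. Capitals mark the core of the metal response element, TGCACNC or TGCGCNC, on either strand. The Mt2 window is chr8:94172368-94172617 and the Mt1 window chr8:94178839-94179088. The Mt1 window precedes a RefSeq start that lies inside the listed gene, so that 206 of its 250 bases are within the gene. Its count of matches is therefore not comparable with that of the Mt2 window, which lies before the gene. Bases after the end of the Mt1 window were not searched, so its count is not that of the whole Mt1 promoter.
Mt2: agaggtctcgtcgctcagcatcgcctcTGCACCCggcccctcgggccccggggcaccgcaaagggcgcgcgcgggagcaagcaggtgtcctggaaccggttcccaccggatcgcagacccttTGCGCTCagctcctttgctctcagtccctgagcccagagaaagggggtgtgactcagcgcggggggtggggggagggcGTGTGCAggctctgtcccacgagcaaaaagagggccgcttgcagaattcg
Mt1: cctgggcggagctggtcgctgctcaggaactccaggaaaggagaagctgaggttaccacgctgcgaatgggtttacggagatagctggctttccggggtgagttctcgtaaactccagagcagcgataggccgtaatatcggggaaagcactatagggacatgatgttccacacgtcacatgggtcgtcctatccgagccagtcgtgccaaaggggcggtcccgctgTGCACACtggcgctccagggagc

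The Mt2 window held 3 matches to the metal element, which begin 223, 128 and 50 bases before the start, and the Mt1 window held 1, at 23 bases. At least 1 match was found in 21.4% of 32851 RefSeq promoter windows of this length, and 3 or more in 1.26%. Mt2 also held 1 antioxidant response element (TGACNNNGC, either strand), at 79 bases, as did 10.2% of windows. Among the 7 of 10 genes with a RefSeq promoter entry, the zinc exporter Slc30a1 held 1 metal element at 43 bases and 1 antioxidant element at 82. Tfrc had a window for each of 2 starts. The earlier start had 2 metal matches that overlapped on opposite strands, at 53 and 50 bases, and the later one had 0. Neither Fth1, in windows for 2 starts, nor Ftl1 and Slc11a1 held a match to either motif. The Slc30a1 window (chr1:191906531-191906780) reaches past the start of the listed gene, and both of its matches lie inside the gene. The Slc11a1 window and those of the later Tfrc and Fth1 starts also reach into their genes. Their counts are thus not comparable with those of windows that lie before a gene. A match is a run of letters, and only the 9 windows with a RefSeq entry were searched.

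Mt1 had 10.05, 10.16 and 10.26 log2 units with talc, against 10.51, 10.56 and 10.49 with vehicle. Every talc array was lower, with a change of -0.36 ± 0.09 (limma adjusted p = 0.0158), or 1.29-fold lower. The call was lost without talc replicate 1 (-0.31, adjusted p = 0.0852) and without vehicle replicate 2 (-0.35, 0.0637). Talc with estradiol gave 10.23, 10.12 and 10.19, against 10.39, 10.61 and 10.57 with estradiol. The groups were separate again, and Mt1 fell by 0.34 ± 0.09 (adjusted p = 0.0261), or 1.27-fold. That call did not hold without any 1 of the talc with estradiol replicates 1, 2 or 3 (-0.37, -0.31 and -0.35, with adjusted p = 0.0542, 0.0978 and 0.0770), or without estradiol replicate 2 (-0.30, 0.122) or 3 (-0.32, 0.0884). It was also lost with the median of its probe sets (-0.28, 0.222), with the brightest alone (-0.32, 0.119), with array medians subtracted (-0.29, 0.0614) and with only the arrays compared (-0.34, 0.119). Group means of Mt1 fell into 2 levels. TiO2 with estradiol (10.56 ± 0.05, SD, n = 3), estradiol (10.52 ± 0.12), vehicle (10.52 ± 0.03) and TiO2 (10.51 ± 0.004) overlapped. Talc with estradiol (10.18 ± 0.06) and talc (10.15 ± 0.11) lay 0.33 below the lowest of them, or 4.56 times the pooled SD.

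Mt2 had 8.37, 8.73 and 8.58 log2 units with talc, against 9.05, 9.21 and 9.13 with vehicle. The talc arrays were all lower, with a change of -0.57 ± 0.12 (limma adjusted p = 0.00671), or 1.48-fold lower. With estradiol, talc arrays read 8.76, 8.62 and 8.74, against 8.73, 9.06 and 9.20. Estradiol replicate 1 reached into the range of the talc arrays, and the difference of -0.29 ± 0.12 (95% interval -0.55 to -0.03) did not pass (adjusted p = 0.194). In the order of group means, from vehicle (9.13 ± 0.08, SD, n = 3) to talc (8.56 ± 0.18), every neighbouring pair overlapped.

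**Figure D2:**
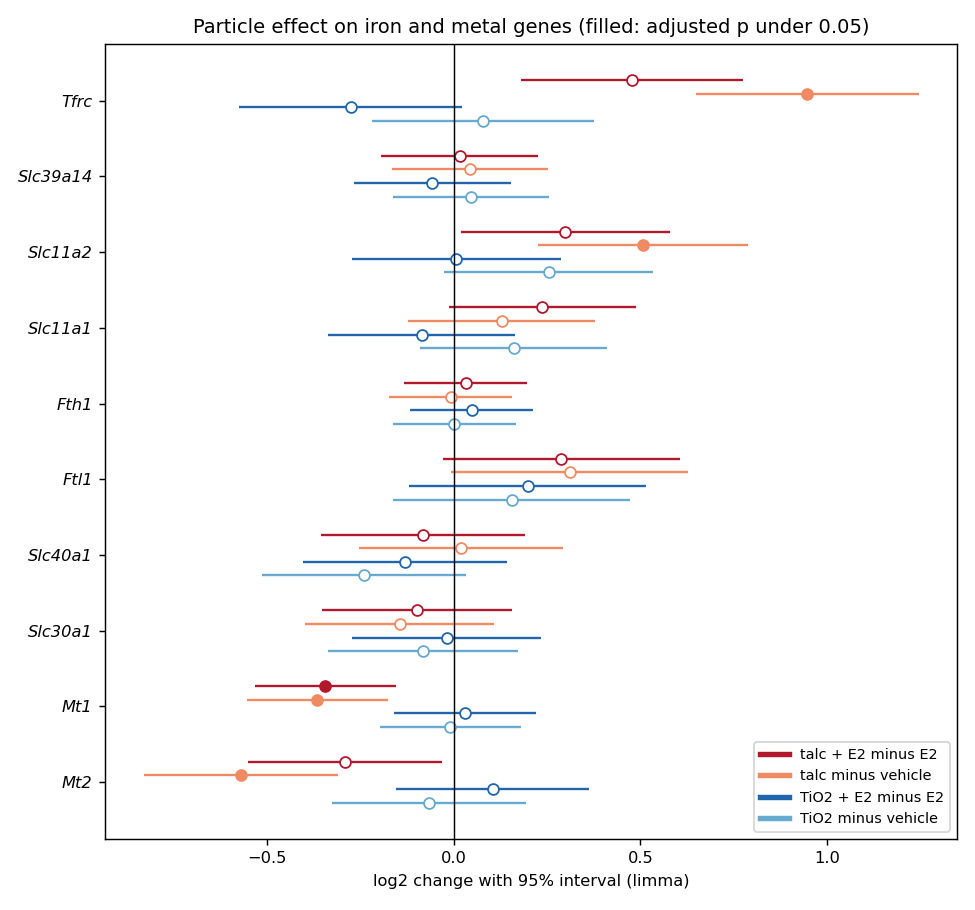
Log2 change of each of the 10 genes with its 95% interval from limma (x axis), for talc and for TiO2, each with estradiol (E2) against estradiol and alone against vehicle. Filled points passed an adjusted p under 0.05: Tfrc (0.95), Slc11a2 (0.51), Mt1 (-0.36) and Mt2 (-0.57) for talc against vehicle, and Mt1 (-0.34) for talc with estradiol, while no TiO2 point is filled.

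For TiO2 alone against vehicle 0 of the 10 genes passed, where 0% of all genes passed by limma, though 1886 genes (8.16%) had an unadjusted p under 0.05, none of them among the 10. For TiO2 with estradiol against estradiol 0 of 10 passed, where 0.00433% of all genes passed, and again none of the 10 had an unadjusted p under 0.05 (8.91% of all genes did). For Tfrc the differences were 0.08 (95% interval -0.22 to 0.38) with TiO2 alone and -0.28 (-0.57 to 0.02) with TiO2 and estradiol. For Mt1 they were -0.01 (-0.20 to 0.18) and 0.03 (-0.16 to 0.22). With talc the Mt1 changes were -0.36 (-0.55 to -0.18) and -0.34 (-0.53 to -0.15), and their intervals overlap with those of TiO2 at the edge. The direct comparison of the particles is given below. Arrays of Slc11a2 alone did not overlap between TiO2 and vehicle, where 12.4% of all genes did not.

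The particles were also set against each other at the same mass, in arrays shared with the comparisons above. Talc against TiO2 gave 3 of 10 genes, where 9.96% of all genes passed, and separate arrays in 4 of 10, against 26.4% of all genes. Tfrc was higher with talc by 0.87 ± 0.14 (limma adjusted p = 0.000745), while Mt1 was lower by 0.36 ± 0.09 (change -0.36, adjusted p = 0.0170) and Mt2 changed by -0.50 ± 0.12 (0.0139). Both metallothionein calls were lost without talc replicate 1 (Mt1 -0.30, adjusted p = 0.0867, and Mt2 -0.41, 0.0782), with the brightest probe set alone (-0.29, 0.129, and -0.32, 0.257) and with only the arrays compared (-0.36, 0.129, and -0.50, 0.0638). The Mt2 call was also lost with the median of probe sets (-0.45, 0.131). Slc11a2 differed by 0.25 ± 0.13 and did not pass (adjusted p = 0.280), although all talc arrays were higher. It passed in 3 of the 28 alternatives, over which its limma adjusted p ran from 0.00985 to 0.509. These were the median of its probe sets, the brightest alone and those above the median level, the last chosen after seeing the data.

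With estradiol in both groups, talc against TiO2 gave 2 of 10 genes, where 9.53% of all genes passed, and separate arrays in 4 of 10, against 27.8% of all genes. Tfrc was higher by 0.75 ± 0.14 (limma adjusted p = 0.00296) and Mt1 changed by -0.37 ± 0.09 (0.0137). The Mt1 call was lost without talc with estradiol replicate 2 (-0.34, adjusted p = 0.0552), with the median of its probe sets (-0.35, 0.0917) and with only the arrays compared (-0.37, 0.0925). Mt2 had a difference of -0.40 ± 0.12 with separate arrays and an adjusted p of 0.0522. It passed without TiO2 with estradiol replicate 1 (-0.46, 0.0485), and also, with the difference unmoved, without talc replicate 1 (0.0474) or estradiol replicate 1 (0.0298) or 3 (0.0429). Across the 28 alternatives it passed in 9, with limma adjusted p from 0.0142 to 0.154. Besides left-out arrays, these were the brightest or brighter probe sets, genes above the median level, quantile normalization, and an intensity trend with robust variance. Slc11a1 and Slc11a2 differed by 0.32 ± 0.12 (adjusted p = 0.10) and 0.29 ± 0.13 (0.192). Slc11a2 passed without TiO2 with estradiol replicate 1 (0.45, 0.0357). It also passed with the median of its probe sets, the brightest alone and those above the median level. Over the 28 alternatives it passed in 4, with limma adjusted p from 0.00221 to 0.542. Slc11a1 passed in 5 of the 28 (0.00638 to 0.308), none of which left out an array. These used the median of probe sets, brighter probe sets, genes above the median level, subtracted array medians, or an intensity trend with robust variance.

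For estradiol alone against vehicle 0 of the 10 genes passed, where 0% of all genes passed by limma. At an unadjusted p under 0.05 there were 1124 genes (4.87%), none of them among the 10. Intervals for the 4 genes that changed with talc were -0.23 to 0.36 for Tfrc, -0.14 to 0.42 for Slc11a2, -0.18 to 0.20 for Mt1 and -0.39 to 0.13 for Mt2. TiO2 with estradiol against TiO2 gave 0 of 10 genes, where 0.00866% of all genes passed and 13% had an unadjusted p under 0.05, with none of the 10 among them.

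Talc with estradiol against talc also gave 0 of 10, where 0% of all genes passed and 1521 genes (6.58%) had an unadjusted p under 0.05. Tfrc was 1 of these, with 6.76, 7.09 and 6.94 with talc and estradiol, against 7.33, 7.26 and 7.43 with talc. Each array with estradiol was lower, and the difference of -0.40 ± 0.14 (95% interval -0.70 to -0.11) had an adjusted p of 0.706. The test of whether the talc effect differed with estradiol gave 0 of 10 genes and 0% of all genes by limma, and an unadjusted p under 0.05 for 1 of 10, against 6.32% of all genes. For that gene, Tfrc, it was -0.47 ± 0.20 (unadjusted p = 0.0309, adjusted p = 0.738), so Tfrc is not shown to respond differently to talc with and without estradiol. For Mt1 it was 0.02 ± 0.13 and for Mt2 0.28 ± 0.17. The same test for TiO2 also gave 0 of 10 and 0% of all genes, and none of the 10 had an unadjusted p under 0.05, against 8.05% of all genes. Across all 6 groups, limma's F test passed 3 of 10 genes, where 11.3% of all genes passed: Tfrc (adjusted p = 0.000214), Mt1 (0.00649) and Mt2 (0.0123). Slc11a2 had 0.0790.

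**Figure D3:**
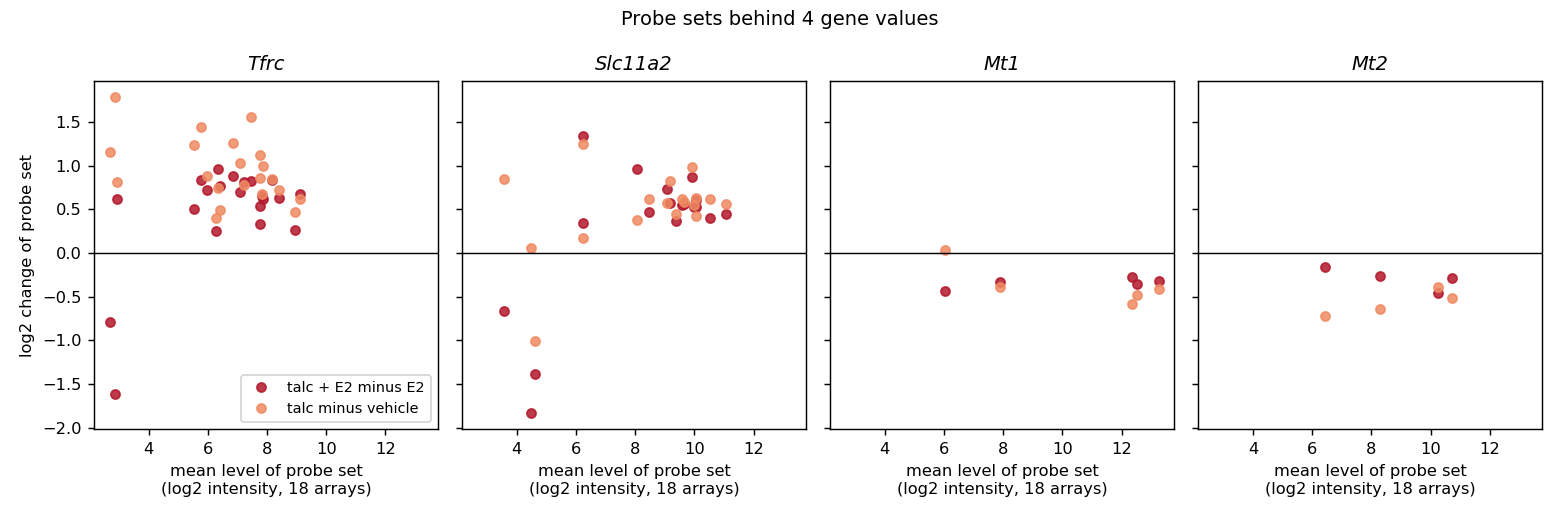
Log2 change of each single probe set (points) of the genes against its mean log2 intensity (x axis), for talc with estradiol against estradiol and for talc against vehicle. All 21 probe sets of Tfrc lie above 0 for talc against vehicle (0.40 to 1.79), and the probe sets of Tfrc and Slc11a2 below 0 sit at low intensity.

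Each gene value averages probe sets spread over its exons, and the single probe sets were looked at after the gene values were known. For talc against vehicle, 21 of 21 Tfrc probe sets were above 0, from 0.40 to 1.79, and 2 passed alone, where 1.8% of all probe sets passed. Of 18 Slc11a2 probe sets 17 were above 0 and 2 passed, and the exception had -1.01. All 4 Mt2 probe sets were below 0 (-0.72 to -0.39) and 1 passed, and so did 1 of 5 for Mt1, of which 4 were below 0. With estradiol, 19 of 21 Tfrc probe sets, 15 of 18 for Slc11a2, 0 of 5 for Mt1 and 0 of 4 for Mt2 were above 0. In that comparison 1 Slc11a2 probe set passed, where 0.972% of all did.

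The 2 Tfrc and 3 Slc11a2 probe sets that went the other way with estradiol all had a mean intensity below the median of all probe sets (5.75 log2 units). Above that median, 17 of 17 for Tfrc (0.25 to 0.96) and 15 of 15 for Slc11a2 (0.34 to 1.34) were higher with talc and estradiol. Gene values made of those brighter probe sets alone, an alternative chosen after seeing the data, gave a limma change of 0.66 ± 0.16 for Tfrc (adjusted p = 0.00817), 0.62 ± 0.10 for Slc11a2 (0.000815) and 0.27 ± 0.08 for Slc11a1 (0.0236). Slc11a2 also passed there with the median of its probe sets (0.57, adjusted p = 0.0203) and with the brightest alone (0.45, 0.0353). Mt1 passed with the brighter probe sets, making 4 of 10 genes, but not with the median of its probe sets or the brightest alone, where Slc11a2 was the only 1 of 10 that passed. Over all genes the number that passed also moved. It was 1647 in the main fit, 2710 with the brighter probe sets, 851 with the median and 856 with the brightest. Which probe sets enter a gene value thus moved the count with estradiol, while directions for Tfrc and Slc11a2 stayed the same.

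Over the 18 arrays, Tfrc correlated with Mt1 at r = -0.86 and with Mt2 at r = -0.85, Mt1 with Mt2 at r = 0.90, and Tfrc with Slc11a2 at r = 0.68. These values share the 6 group means and are a description only. Among 10692 genes above the median level, the pattern of Tfrc over the arrays was most like that of Ltv1, a factor of small ribosomal subunit assembly (r = 0.97), Ptcd3, of the mitochondrial ribosome (0.96), and Btaf1, a regulator of the TATA-binding protein (0.95). For Mt1 these were Hmga2-ps1 (0.96), Tcf19 (0.96) and Arl11 (0.95). For Mt2 they were Spc24, of the kinetochore (0.94), Uhrf1, which maintains DNA methylation (0.92), and H2ax, a histone variant of damaged chromatin (0.92).

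Other genes of iron, zinc, copper and heme were taken from 5 lists of 88 genes, of which 85 were measured. For talc against vehicle 8 of 85 were higher and 6 lower by limma, where 3.94% and 4.52% of all genes were. For talc with estradiol against estradiol the counts were 9 and 4, where 4.13% and 3% of all genes were. Median changes of the 85 were 0.03 in both, beside 0.02 and -0.004 for all genes. Neither TiO2 against its control nor any estradiol comparison or interaction called a gene of the lists, but 0% to 0.00866% of all genes passed in these, so the zeros are no result about metal genes.

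Of 24 genes of iron uptake, export and heme handling, 2 were higher and 2 lower for talc against vehicle. The shares of all genes were 3.94% and 4.52%. Hmox1, the heme oxygenase that releases iron from heme, rose by 0.64 ± 0.11 (limma adjusted p = 0.000915), and the heme exporter Flvcr1 by 0.39 ± 0.10 (0.0197). Lrp1, a receptor that takes up heme bound to hemopexin, changed by -0.55 ± 0.16 (0.0468). The iron hormone gene Hamp changed by -0.86 ± 0.21, but at mean levels of 1.92 log2 units with talc and 2.78 with vehicle, below the median of gene means (4.73). With estradiol 3 were higher and 2 lower, where 4.13% and 3% of all genes were. Hmox1 (0.63 ± 0.11), Flvcr1 (0.53 ± 0.10) and the biliverdin reductase Blvrb (0.39 ± 0.09) rose, and Hfe (-0.50 ± 0.13) and transferrin, Trf (-0.67 ± 0.20, adjusted p = 0.0499), fell.

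Among 19 genes of iron sensing, ferritin turnover and mitochondrial iron, 1 was higher and 2 lower for talc against vehicle. The shares of all genes were 3.94% and 4.52%. Epas1, the hypoxia-inducible factor HIF-2 alpha, changed by -0.84 ± 0.10 (limma adjusted p = 4.31e-05). Ncoa4, the receptor that delivers ferritin to autophagy, changed by -0.35 ± 0.09 (0.0185), and the autophagy enzyme Atg7 by 0.35 ± 0.09 (0.0180). With estradiol 3 were higher and 1 lower, where 4.13% and 3% of all genes were. Epas1 changed by -0.63 ± 0.10, Iscu, the scaffold of iron-sulfur clusters, by 0.56 ± 0.15, the iron chaperone Pcbp1 by 0.43 ± 0.12, and Atg7 by 0.33 ± 0.09. The genes of the iron regulatory proteins did not pass: Aco1 differed by -0.14 ± 0.10 and Ireb2 by -0.01 ± 0.14 for talc against vehicle. Of 7 heme synthesis genes 1 fell in each, Ppox (-0.39 ± 0.10) without estradiol and Cpox (-0.39 ± 0.11) with it. Of all genes 4.52% were lower without estradiol and 3% with it.

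Of 24 zinc genes 3 were higher and 0 lower in both arms, where 3.94% (talc against vehicle) and 4.13% (with estradiol) of all genes were higher. Against TiO2, talc gave 4 higher and 1 lower, where 4.61% and 5.35% of all genes were. With estradiol in both groups it gave 4 higher and 0 lower, where 6.66% and 2.87% of all genes were. For talc against vehicle the 3 higher genes were the zinc importers Slc39a2 (0.68 ± 0.12, limma adjusted p = 0.00148) and Slc39a10 (0.58 ± 0.13) and the transporter of the early secretory pathway Slc39a7 (0.47 ± 0.10). For talc with estradiol against estradiol they were Slc39a7 (0.73 ± 0.10, adjusted p = 0.000265), Slc39a2 (0.52 ± 0.12) and Mtf1 (0.47 ± 0.12), the metal-sensing activator of metallothionein genes. Without estradiol Mtf1 had 7.55 log2 units with talc, against 7.31 with vehicle, and did not pass (0.25 ± 0.12, adjusted p = 0.252). Against the control without particles, Mtf1 thus passed only with estradiol, and whether it bears on Mt1 was not tested.

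Of 11 copper genes, 2 rose and 1 fell for talc against vehicle, where 3.94% and 4.52% of all genes did. The mitochondrial copper chaperone Sco1 rose by 0.51 ± 0.13 (limma adjusted p = 0.0168) and the copper pump Atp7a by 0.43 ± 0.12 (0.0416), and the copper-zinc superoxide dismutase Sod1 changed by -0.43 ± 0.12 (0.0347). With estradiol 0 passed by limma, where 7.13% of all genes did. Sco2 and Atp7a had the smallest p there, with differences of 0.69 ± 0.22 (limma adjusted p = 0.0697) and 0.37 ± 0.12 (0.0903).

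**Figure D4:**
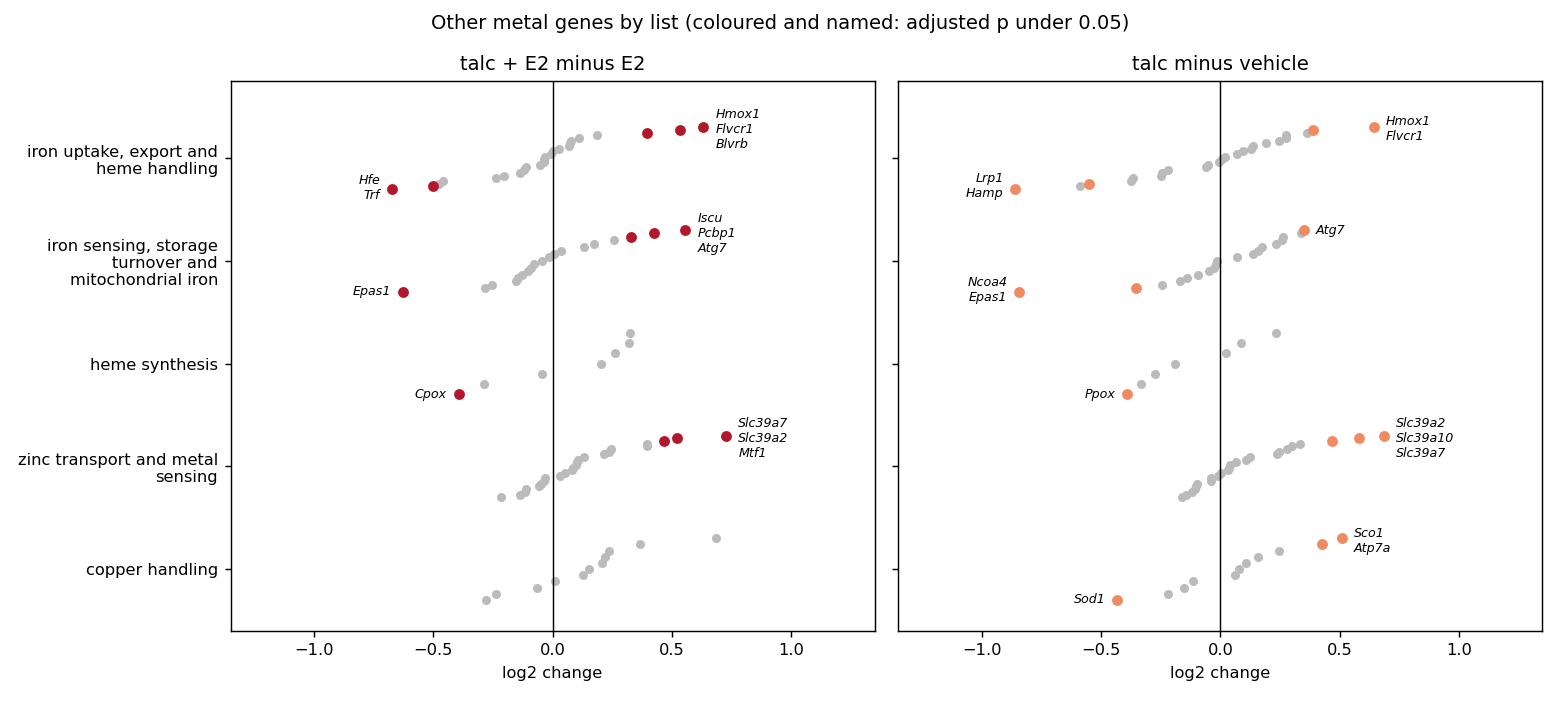
Log2 change of 85 other metal genes (points) in 5 lists, for talc with estradiol (E2) against estradiol and for talc against vehicle, ordered by change within each list. Coloured, named points passed an adjusted p under 0.05: 9 higher and 4 lower with estradiol, and 8 higher and 6 lower without.

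Set against TiO2, talc gave 9 higher and 7 lower of the 85, where 4.61% and 5.35% of all genes were. With estradiol the counts were 12 and 1, where 6.66% and 2.87% of all genes were. Hmox1 was higher with talc in both (0.39 ± 0.11 without and 0.55 ± 0.11 with estradiol), as were Flvcr1 (0.63 ± 0.10 and 0.59 ± 0.10), Slc39a7 (0.49 ± 0.10 and 0.61 ± 0.10) and Mtf1 (0.56 ± 0.12 and 0.64 ± 0.12). Of the 10 macrophage markers 2 were lower and 0 higher with talc against vehicle, Adgre1 (-0.79 ± 0.16) and Itgam (-0.57 ± 0.10). There 4.52% of all genes were lower and 3.94% higher. With estradiol 1 was higher, Cd14 (0.37 ± 0.09), and 1 lower, Itgam (-0.37 ± 0.10), where 4.13% and 3% of all genes were. Of 6 fibroblast markers 1 was lower with talc in both, where 4.52% and 3% of all genes were. It was Pdgfra (-0.67 ± 0.16 without and -0.89 ± 0.16 with estradiol), at levels near the median of gene means. The part of the markers in the changes of the metal genes was not tested.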

How the data were processed

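The authors deposited linear intensities per probe set, ranging over 1.46 to 17256 across arrays, and the submitters' processing notes name RMA with no version; further steps are not given in the sources used here. Here log2 was taken, and a gene's value was the mean of its probe sets with a single symbol (233753 of 269751; 5106 carried several symbols and 30892 none). Symbols came from the platform annotation, and 2247 were updated through RefSeq synonyms (GRCm38.p6), the source of locations and promoters. Probe sets of 1 gene that move apart can cancel.

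A single limma model (version 3.58.1, R 4.3.3, and the package data.table, 1.17.8) held a mean for each of 6 groups over 18 arrays (12 residual and 4.57 prior degrees of freedom). It had 11 contrasts, each adjusted by Benjamini-Hochberg over 23102 genes, two-sided, and called at 0.05. The number of arrays limits precision, at a median SE of 0.151 log2 units, and 0.213 for interactions. No gene was filtered out, and the script was tested on simulated data. The 10 genes and the lists were chosen with earlier results of these data known. List genes named are up to 4 per list and comparison with the smallest p among those that passed, or the 2 smallest where none did; Trf, Mtf1, Aco1, Ireb2, the genes set against TiO2 and the cell markers were named after their values were seen. Alternatives were other summaries of probe sets, a filter on level, other normalizations and variance models, fits restricted to 2 groups, and each array omitted in turn. Gene values from brighter probe sets or with shared ones added, and tests of single probe sets, were chosen after seeing the data.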

Additional observations from a re-analysis of the deposited data

How the results depend on the processing

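Each result was recomputed under 28 alternatives, 18 of which leave out 1 array. Of 280 values for the 10 called changes, 29 missed the threshold and 0 changed sign; of 2800 values for uncalled changes, 36 passed and 171 had the opposite sign, none of which passed. The call of Tfrc for talc against vehicle was kept in 27 and lost with the brightest probe set per gene (0.62, adjusted p = 0.141); against TiO2 it was kept in all 28, with and without estradiol. For talc against vehicle the count of 4 genes became 2 with the brightest probe set and 5 with probe sets above the median level, where Slc30a1 passed too. It was 2 to 4 over the left-out arrays. With the brightest probe set 1326 of all genes passed, and with probe sets above the median level 3014, against 1955 in the main fit. For talc with estradiol against estradiol the count of 1 became 2 with array weights, 2 among genes above the median level, 2 with an intensity trend and robust variance, 2 with quantile normalization, 0 with only the arrays compared and 4 with probe sets above the median level, and was 0 to 2 over the left-out arrays. The count stayed at 1 with another gene in place of Mt1 under 3 settings, Slc11a2 with the median of probe sets and the brightest probe set, and Tfrc with array medians subtracted. Over all genes, the number that passed there was 1647 in the main fit, 2311 with array weights and 2483 among genes above the median level. It was 2221 with the trend and robust variance, 1585 with quantile normalization and 988 with only the arrays compared. With probe sets above the median level it was 2710, and the level filters left fewer genes to test. For talc against TiO2 the count of 3 became 1 with only the arrays compared and 4 with probe sets above the median level. It was 1 to 3 over the left-out arrays. With only the arrays compared 1011 of all genes passed, and with probe sets above the median level 3442, against 2301 in the main fit. With estradiol in both, the count of 2 became 4 with the brightest probe set, 4 among genes above the median level, 4 with an intensity trend and robust variance, 1 with only the arrays compared and 5 with probe sets above the median level, and was 1 to 4 over the left-out arrays. The F test's 3 became 5 with probe sets above the median level. For talc against vehicle, the Mt2 call was lost with the median of probe sets (-0.52, adjusted p = 0.0844) and with the brightest alone (-0.52, 0.0610), and the Mt1 call with only the arrays compared (-0.36, 0.0876). The cause of these losses was not tested. Of the settings just named, only the fit of the arrays compared rests on fewer arrays, as do the fits with an array left out. No paired analysis was possible because array numbers in the labels run on from group to group and match no arrays.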
